A study of Mus musculus with 18 samples.

Results

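The 9 genes described here encode AP-1 transcription factors and 2 of their close relatives: Fos, Fosb, Fosl1 and Fosl2 of the Fos family, Jun, Junb and Jund of the Jun family, Atf3 of the ATF family and Maff of the small Maf family. They were taken by gene name, with earlier results of these data known, and are 9 of the 55487 gene IDs in the data. All 9 were among the 16694 genes tested, which were those whose mean in some organ reached 1 TPM (a transcript's share of its library's RNA, corrected for transcript length). Fosl1 passed that filter through bone marrow alone. The study compared regulatory T (Treg) cells, the CD4+Foxp3+ T cells that restrain immune responses, sorted fresh from 6 organs of wild-type mice: liver, lung, bone marrow, peripheral blood, spleen and lymph node. Each organ had 3 poly(A) RNA-seq libraries, 18 in all, from untreated animals. The labels give no age, sex, strain or sorting gate for any group, and they do not say whether replicates came from separate animals, so the p-values below measure the spread between these libraries, which may be technical.

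AP-1 is a dimer of leucine zipper proteins. A Fos protein needs a Jun partner to bind DNA, whereas Jun proteins can also pair with each other, so the balance of Fos and Jun proteins sets which dimers can form. Most of these genes are immediate early genes: their transcripts appear within minutes of antigen receptor signals, cytokines, growth factors or stress, and decay quickly. In T cells AP-1 joins NFAT on the control regions of cytokine genes, and BATF, a related protein that pairs with Jun proteins, takes part in the programme of Treg cells in non-lymphoid tissue. Atf3 is induced by stress, and Maff lacks an activation domain of its own and acts through its partners.

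The promoters of 5 members are shown because they hold matches to known response elements or, in Fos, Fosb and Junb, to the first 5 bases of one. Matches in the windows of Atf3 and in another Maff window are not shown. The windows come from RefSeq on GRCm38.p6, run 5′ to 3′ on the gene's strand and end where the first annotated exon begins. Capitals mark matches on either strand to TGACG, to the cyclic AMP response element TGACGTCA (which contains TGACG on both strands) and to TGACATCA, an AP-1 like element known from the Jun promoter.
Fos, chr12:85473740-85473889, plus strand: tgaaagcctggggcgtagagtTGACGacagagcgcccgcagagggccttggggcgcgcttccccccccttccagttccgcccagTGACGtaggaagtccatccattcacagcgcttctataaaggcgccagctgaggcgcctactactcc
Fosb, chr7:19310052-19310195, minus strand: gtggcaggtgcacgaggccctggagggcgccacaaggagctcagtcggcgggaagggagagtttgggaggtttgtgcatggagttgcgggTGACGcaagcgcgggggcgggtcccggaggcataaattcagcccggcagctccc
Jun, chr4:95052223-95052372, minus strand: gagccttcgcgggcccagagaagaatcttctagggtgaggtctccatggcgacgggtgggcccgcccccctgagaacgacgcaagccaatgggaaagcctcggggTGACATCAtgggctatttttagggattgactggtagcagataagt
Junb, chr8:84978749-84978898, minus strand: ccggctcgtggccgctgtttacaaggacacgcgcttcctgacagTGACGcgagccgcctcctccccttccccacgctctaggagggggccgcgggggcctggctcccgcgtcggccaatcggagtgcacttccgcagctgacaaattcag
Maff, chr15:79347370-79347519, plus strand: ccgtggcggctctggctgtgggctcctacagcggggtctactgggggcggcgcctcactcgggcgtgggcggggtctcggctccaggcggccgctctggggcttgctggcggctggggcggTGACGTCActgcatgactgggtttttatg
Counted from the transcription start, with the base before it as -1, the TGACG matches began at -66 and -129 in Fos, -60 in Fosb and -106 in Junb. The TGACATCA match began at -45 in Jun, and the full TGACGTCA match began at -29 in this Maff window, one of the 3 that RefSeq lists for the gene. Whole windows ran from 250 bases before to 50 after the start. TGACG or its reverse complement occurred in 6 of the 10 windows of 8 members, against 20.8% of 32851 windows of all genes. The 6 windows belonged to 5 members. TGACGTCA occurred in 1 member window (1.79% of all windows), and TGACATCA in 2, of Jun and Maff (3.62% of all windows). The AP-1 site TGACTCA occurred in 0 of the 10 member windows and in 5.20% of all windows. A match is a description of letters and not a measured binding site. No window for Fosl1 was used here.

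Every library held Treg genes: all 6 of the markers Foxp3, Il2ra, Ctla4, Ikzf2, Cd4 and Cd3e reached at least 1 TPM in each organ, with summed levels from 809 TPM in blood to 2635 TPM in lung. Markers of other cells were present too, at levels that differed between organs. The 8 neutrophil markers summed to 42364 to 42789 TPM in bone marrow and 17463 to 18606 TPM in blood, against 584 to 690.0 in lung, 472 to 649 in spleen, 136 to 324 in liver and 15.8 to 67.8 in lymph node. All 8 reached 1 TPM outside liver (6 of 8) and lymph node (5 of 8). The 8 monocyte and macrophage markers summed to 8566 to 8777 TPM in blood, 3433 to 3534 in bone marrow, 1146 to 1242 in lung, 201 to 216 in spleen, 175 to 202 in liver and 65.5 to 73.6 in lymph node. The 7 platelet markers summed to 2209 to 2244 TPM in blood and 71.4 to 82.8 TPM in bone marrow, and to at most 19.0 TPM in any library elsewhere, where Gp1bb was listed at 0 in all liver, lung and lymph node libraries, Tubb1 in spleen and Treml1 in lymph node. The 6 erythroid markers were highest in liver, at 10932 to 11969 TPM, followed by 6314 to 6502 in bone marrow, 2826 to 2992 in blood, 1840.2 to 1983 in spleen, 1426 to 1540 in lung and 72.7 to 75.4 in lymph node. The 6 B cell markers summed on average to 543 TPM in blood, 485 in spleen, 476 in bone marrow, 135 in lymph node, 120 in lung and 73.2 in liver. The 6 cytotoxic markers summed on average to 534 TPM in blood and to 75.6 to 109 TPM in the other organs. Lung epithelial markers were found in lung (225 to 297 TPM over 5 genes) and reached at most 1.62 TPM in any library of another organ. In bulk RNA a smaller number of cells of one type and less RNA per cell cannot be told apart. TPM files carry no read counts, so the depth of each library is unknown. Replicates of lymph node and bone marrow lay closest together, with a median coefficient of variation of 2.55% and 3.23% over genes at 100 TPM or above, and those of liver farthest apart (10.5%).

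**Figure D1:**
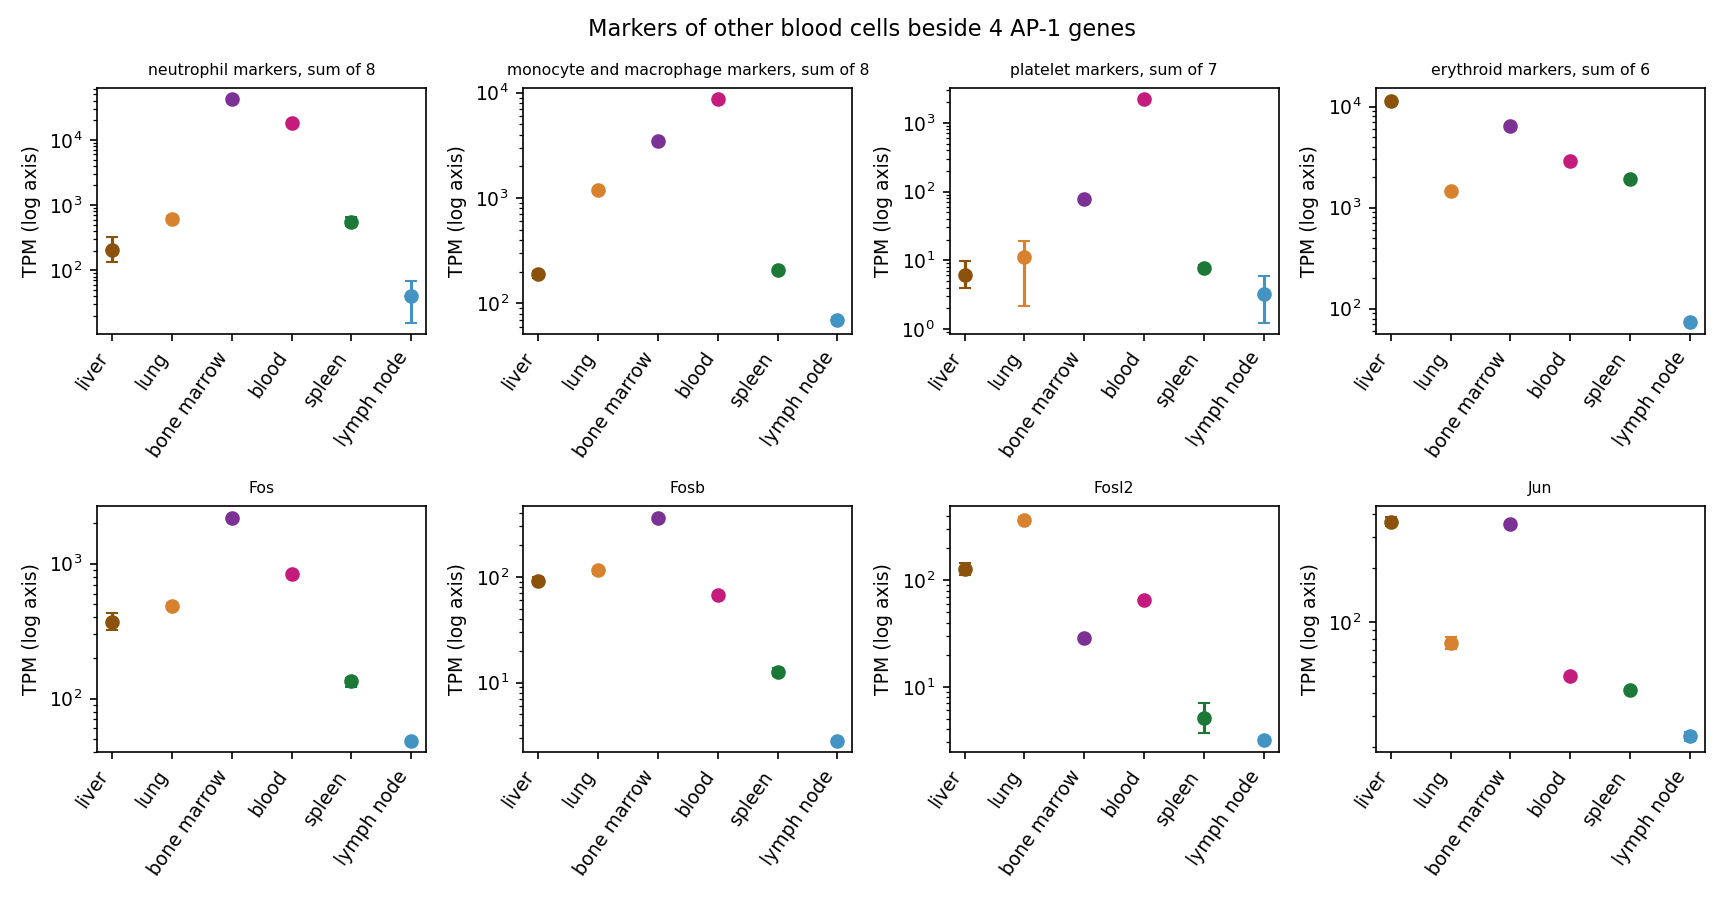
Summed TPM of the neutrophil, monocyte and macrophage, platelet and erythroid markers (top row) and TPM of Fos, Fosb, Fosl2 and Jun (bottom row) by organ, on log axes. Points are means of 3 libraries and bars run from the lowest to the highest library. Neutrophil markers and Fos were both highest in bone marrow and lowest in lymph node, whereas Fosl2 was highest in lung and erythroid markers in liver, which overlapped with bone marrow in Jun.

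Fos, whose product is the inducible core partner of Jun proteins (chr12:85473890-85477273, GRCm38), was by far highest in bone marrow. Its level there was 2184, 2199.6 and 2209.7 TPM in the 3 libraries, against 836, 853 and 843 TPM in blood. Lung libraries stood at 472, 473 and 513 TPM, liver libraries at 429, 321 and 356 TPM, spleen libraries at 142, 123 and 137 TPM and lymph node libraries at 48.7, 49.2 and 48.3 TPM. No 2 organs overlapped, and each step in this order passed the test. The span from lymph node to bone marrow was 45.1-fold, a difference of 5.47 ± 0.08 in mean log2(TPM + 1) (standard error; adjusted p = 8.7e-17, limma with Benjamini-Hochberg adjustment). The narrowest step, lung over liver, was 0.41 ± 0.08 (adjusted p = 0.00094, and 0.117 when only the liver and lung libraries were fitted, within a range of 2.0e-06 to 0.117 over 30 alternatives). The 2 organs with the most Fos were also the 2 with the highest sums of neutrophil and monocyte markers, and the part of those cells in the Fos level was not tested. Between liver and spleen, the mean neutrophil marker sums were 208 and 559 TPM, the monocyte marker sums 189 and 207 TPM, and Fos was 2.75 times higher in liver. The mean erythroid marker sums of these organs were 11468 and 1928 TPM, and the B cell marker sums 73.2 and 485 TPM. Of all genes tested, 31.3% were called between liver and spleen and 14% were higher in liver. All 10 listed genes that respond to heat and handling of cells were higher in liver. What part any of these had in the Fos difference was not tested.

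Fosb, a second inducible Fos protein (chr7:19302696-19310051), had the widest fold range of the members whose lowest organ mean reached 1 TPM, 128-fold. Bone marrow libraries stood at 367, 363 and 356 TPM, and lymph node libraries at 2.86, 2.78 and 2.81 TPM. Between them came lung at 108, 118 and 123 TPM, liver at 85.2, 99.4 and 87.9 TPM, blood at 66.2, 67.5 and 70.1 TPM and spleen at 12.4, 13.8 and 11.6 TPM. The groups did not overlap and all 5 steps in the order were called. Blood thus ranked below lung and liver for Fosb but above both for Fos: Fosb was 0.76 ± 0.08 lower in blood than in lung on the log2 scale, where Fos was 0.80 ± 0.08 higher. Both calls are against the same pair of groups, with adjusted p of 1.7e-06 and 6.2e-07 in limma's test. Fosb was 0.41 ± 0.08 higher in liver than in blood, but when libraries were scaled to 20 general T cell genes this difference was -0.44 (adjusted p = 0.00020, within a range of 0.00020 to 0.0156 over 29 alternatives), so its direction rests on the scaling. The step from lung to liver, 0.35 ± 0.08, kept its direction in all 30 alternatives but missed the threshold in 3, including the fit without blood and bone marrow (adjusted p = 0.0574; range 4.8e-06 to 0.0726). The mean neutrophil marker sum was also highest in bone marrow (42606 TPM) and lowest in lymph node (40.9 TPM), and the part of those cells in the Fosb level was not tested.

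Fosl2, which encodes the Fos protein Fra-2, found in more lasting AP-1 dimers (chr5:32135801-32157842), had another order. Lung libraries held 351, 391 and 369 TPM and liver libraries 123, 111 and 146 TPM. Blood held 62, 64.9 and 67.2 TPM and bone marrow only 29.8, 27.2 and 28.8 TPM, while spleen had 7.07, 4.48 and 3.66 TPM and lymph node 3.22, 3.10 and 3.08 TPM. Lung exceeded bone marrow 12.9-fold (3.65 ± 0.15, adjusted p = 4.1e-11 in limma's test), the reverse of Fos, which was 4.52 times higher in bone marrow than in lung. Lung exceeded lymph node 118-fold (6.49 ± 0.15, adjusted p = 3.3e-14). The lung libraries also held lung epithelial markers, whose part in the Fosl2 level was not tested. Liver libraries listed all 5 of those markers at 0. The last step, spleen over lymph node, was 0.52 ± 0.15 (adjusted p = 0.0352). It was lost in 8 of 31 alternatives (range 0.0038 to 0.167), among them the fits without spleen replicate 1 (0.29, adjusted p = 0.137) and without any 1 of the lymph node libraries (0.0811 to 0.0990).

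Fosl1, which encodes Fra-1 (chr19:5447547-5455946), was near the lower limit of the data. It was listed at 0 in all 3 liver libraries, at 0, 0.16 and 1.24 TPM in lung, 1.22, 1.54 and 0.74 TPM in bone marrow, 0.75, 0.62 and 0.06 TPM in blood, 0, 0 and 0.2 TPM in spleen, and 0, 0 and 0.06 TPM in lymph node. The gene entered the fit through its bone marrow mean, so its differences with bone marrow are given as these values, with no test. Without bone marrow replicate 2 the gene no longer passed the filter. Ccdc85b lies over it on the other strand, at up to 11.6 TPM, and whether counting used the strand is not given in the sources used here.

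**Figure D2:**
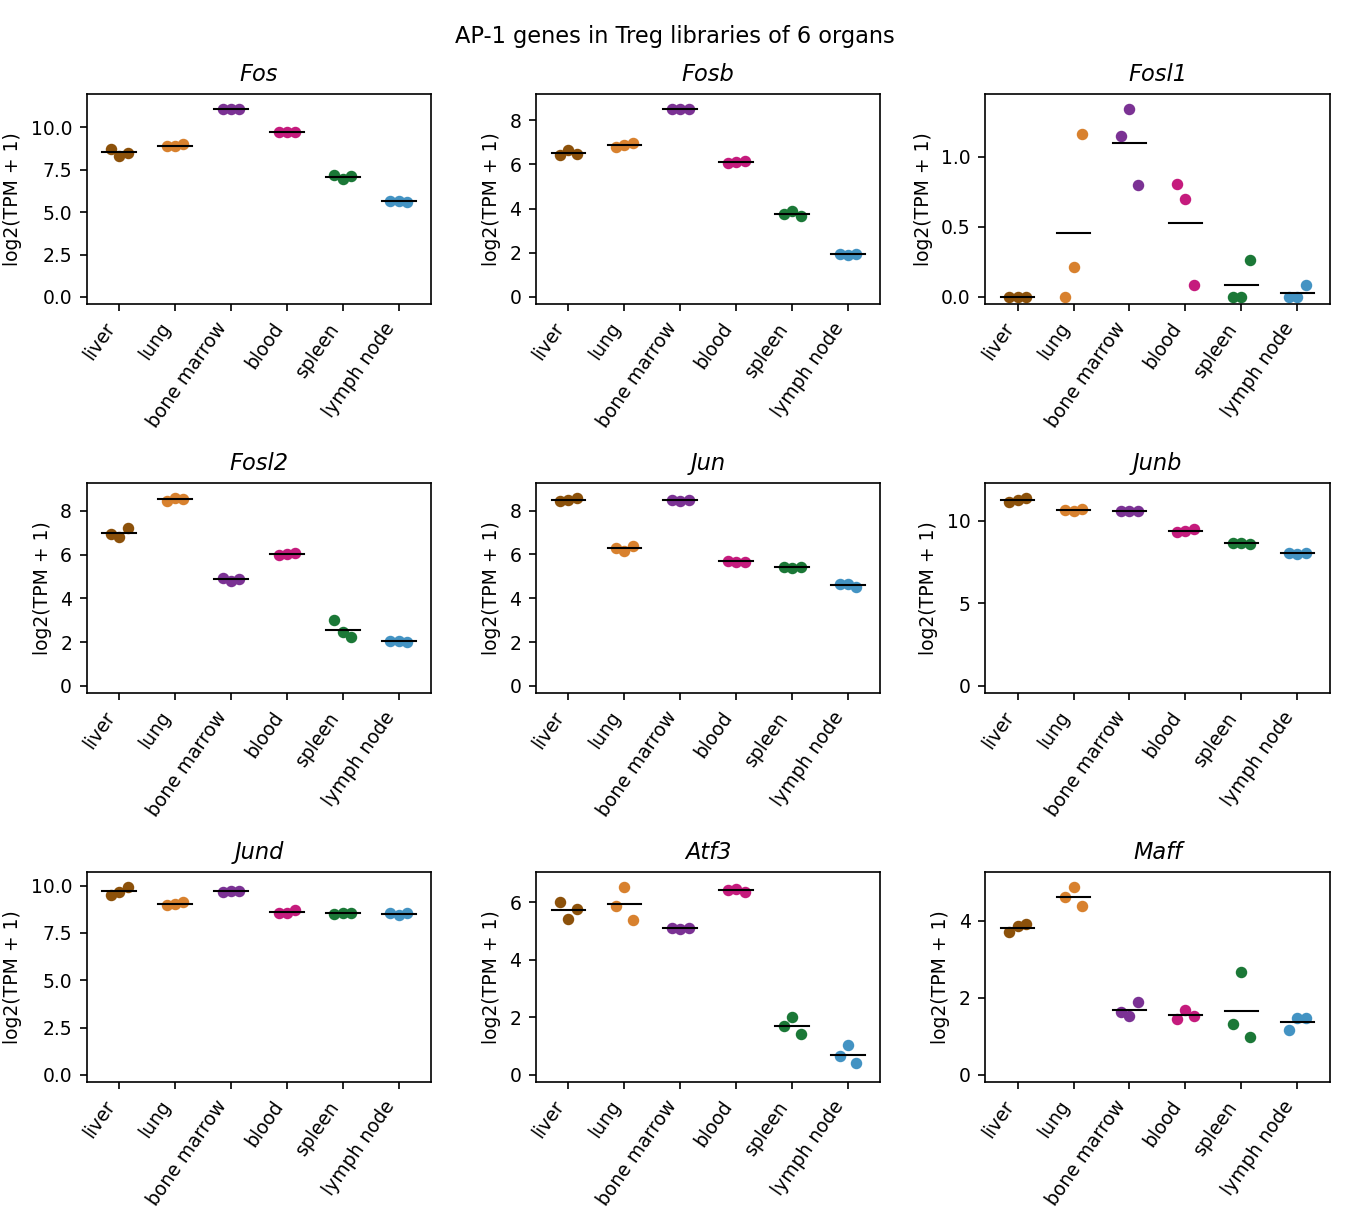
Level of each AP-1 gene as log2(TPM + 1) in the 18 libraries, by organ. Points are single libraries and black lines are means of 3. Fos and Fosb peaked in bone marrow, Fosl2 and Maff in lung, Junb in liver, and Jun and Jund in liver and bone marrow alike. Lymph node had the lowest mean for 8 of 9 genes, but for Jund and Maff it did not differ from blood or spleen by the test.

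Junb, which encodes the Jun protein that curbs the growth-promoting action of c-Jun and supports several effector T cell programmes (chr8:84974484-84978718), was the most abundant member outside bone marrow, blood and lymph node. Liver libraries held 2266, 2494 and 2708 TPM. Lung held 1606, 1521 and 1700.5 TPM and bone marrow 1539, 1566 and 1571 TPM, 2 groups that overlapped and did not differ by the test (0.04 ± 0.06, adjusted p = 0.562). Blood followed at 648, 671 and 714 TPM, spleen at 403, 399.7 and 389.8 TPM and lymph node at 264, 258 and 267 TPM. Liver exceeded lymph node 9.46-fold (3.23 ± 0.06, adjusted p = 6.6e-16 in limma's test). Lung was called above bone marrow when scaled by median ratios (0.26, adjusted p = 0.0014) or without the most abundant gene classes (0.17, adjusted p = 0.0178), within a range of 0.0014 to 0.982 over 30 alternatives. Prdx2 lies over Junb on the other strand and reached 194 TPM.

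Jun, the c-Jun gene and founding member of the family (chr4:95049034-95052222, a gene of 1 annotated transcript), divided the organs into a high pair and a low set. Liver libraries held 344, 356 and 385 TPM and bone marrow libraries 354, 348 and 360.5 TPM. These overlapped, and their difference of 0.03 ± 0.07 did not pass the test (adjusted p = 0.794). Lung held only 77.7, 70.5 and 82.4 TPM, blood 50.9, 49.7 and 50.0 TPM, spleen 42.5, 41.0 and 41.7 TPM and lymph node 24.3, 23.8 and 21.6 TPM. Liver exceeded lung 4.71-fold (2.22 ± 0.07, adjusted p = 4.1e-12), whereas Fosl2 was 2.92 times higher in lung than in liver. With scaling to 20 T cell genes, Jun was 0.40 lower in liver than in bone marrow (adjusted p = 0.00030; range 0.00030 to 0.933 over 29 alternatives) and its excess in lung over blood, 0.60 ± 0.07 as deposited, was 0.11 (adjusted p = 0.209; range 7.5e-07 to 0.209). The small step from spleen to blood, 0.26 ± 0.07, was 0.12 without the most abundant gene classes (adjusted p = 0.192; range 5.2e-09 to 0.192). Liver and bone marrow were also the organs with the highest erythroid marker sums, and bone marrow had the highest neutrophil marker sum. The part of these cells in the Jun level was not tested.

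Jund, the Jun gene known for steady expression (chr8:70698949-70700616), had the narrowest fold range of the 8 members other than Fosl1. It held 736, 811 and 987 TPM in liver, 801, 847 and 833 TPM in bone marrow, 511, 519 and 556 TPM in lung, 368, 381 and 411 TPM in blood, 368, 377 and 376 TPM in spleen and 368, 353 and 376 TPM in lymph node. The last 3 organs overlapped, and none of the 3 pairs among them passed the test (adjusted p from 0.490 to 0.911, limma). Liver and bone marrow overlapped too (0.02 ± 0.08, adjusted p = 0.877). The span from lymph node to liver was 2.31-fold (1.19 ± 0.08, adjusted p = 1.5e-08). Since TPM are shares of each library, the flat stretch depends on the scaling: with 20 T cell genes as the reference Jund was 1.14 higher in blood than in lymph node (adjusted p = 3.0e-09; range 3.0e-09 to 0.904 over 30 alternatives), 0.85 higher in blood than in spleen and 0.29 higher in spleen than in lymph node. It was then also 0.41 lower in liver than in bone marrow, and its excess of 0.45 in lung over blood became -0.05 (adjusted p = 0.648). Gm11175 lies over Jund on the other strand, at up to 21.4 TPM.

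Atf3, a stress-induced repressor and partner of Jun proteins (chr1:191170296-191218039), was close to absent in spleen and lymph node and present in the other 4 organs. Blood libraries held 85.1, 86.2 and 81.6 TPM, lung 57.0, 92.1 and 41.1 TPM, liver 63.7, 41.9 and 53.7 TPM and bone marrow 33.6, 32.6 and 33.1 TPM. Spleen held 2.21, 3.03 and 1.66 TPM and lymph node 0.58, 1.05 and 0.34 TPM. Bone marrow exceeded spleen 14.4-fold (3.39 ± 0.25, adjusted p = 4.0e-08 in limma's test), and blood exceeded lymph node by 5.71 ± 0.25 on the log2 scale (adjusted p = 3.7e-11). Blood and lung, lung and liver, and liver and bone marrow, the neighbours among the 4 higher organs, did not pass the test (adjusted p = 0.132, 0.596 and 0.0552). Several calls among these 4 organs depended on single libraries. The difference of 0.68 between blood and liver (adjusted p = 0.0404) missed the threshold in 12 of 29 alternatives, including each fit without a blood or bone marrow library and those without liver replicate 2 or 3 (range 4.0e-05 to 0.155). Liver over bone marrow was called in 9 of 29, including those without liver replicate 2, lung replicate 2 or lung replicate 3 (range 0.0196 to 0.458). Without lung replicate 2, the highest lung library, lung was no longer called over bone marrow (0.53 against 0.84, adjusted p = 0.0667; range 0.0016 to 0.0667), and blood was called over lung (0.79 against 0.48, adjusted p = 0.0100; range 0.0026 to 0.508). Spleen over lymph node, at 1.00 ± 0.25, was lost without spleen replicate 2 (adjusted p = 0.0602) and without lymph node replicate 3 (0.0670; range 0.0017 to 0.280). The platelet and monocyte marker sums were highest in blood as Atf3 was, and their part was not tested. Between liver and spleen, the platelet sums were 6.16 and 7.78 TPM, the monocyte sums 189 and 207 TPM, and Atf3 was 23.1 times higher in liver. The mean erythroid sums of these organs were 11468 and 1928 TPM, and the B cell sums 73.2 and 485 TPM. Of all genes tested, 31.3% were called between liver and spleen and 14% were higher in liver. All 10 listed genes that respond to heat and handling of cells were higher in liver. What part any of these had in the Atf3 difference was not tested.

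Maff, a small Maf protein without an activation domain (chr15:79346621-79359076), was largely a gene of the lung and liver libraries. Lung held 23.3, 28.5 and 19.7 TPM and liver 11.9, 13.5 and 14.0 TPM. Bone marrow had 2.11, 1.87 and 2.71 TPM, blood 1.74, 2.23 and 1.86 TPM, spleen 1.51, 5.31 and 0.96 TPM and lymph node 1.25, 1.79 and 1.80 TPM. The lung and liver libraries lay above all others, and none of the 6 pairs among the remaining organs passed the test (adjusted p from 0.619 to 0.985, limma). Lung exceeded bone marrow 10.7-fold (2.94 ± 0.32, adjusted p = 2.1e-06). Lung and liver did not overlap but missed the threshold (0.80 ± 0.32, adjusted p = 0.0666). That pair was called in 5 of 30 alternatives (range 0.0058 to 0.372), among them the fits without spleen replicate 2 (0.0058) or 3 (0.0377), in which the spread that all groups share was smaller.

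The 8 genes other than Fosl1 differed among the 6 organs by limma's F test (adjusted p from 8.6e-17 for Fosb to 4.2e-07 for Maff), where 68% of all genes tested did. Without blood and bone marrow, a fit added after seeing the data, the 8 members that still passed the filter were all called. The share of all genes called in that fit is not given here, so this count cannot be set against it. Over the 15 pairs of organs the 8 genes other than Fosl1 gave 104 calls of 120, and all genes gave 84648 of 250410. With Fosl1 the members gave 107 of 135, and the 3 calls of Fosl1 were all with bone marrow. These fits share libraries between pairs, so the pairs are not independent of each other.

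Against spleen and lymph node the calls ran in 1 direction. Of 9 genes, 8 were higher in liver than in lymph node (Fosl1 was not called), where 31.1% of all genes tested were called and 9.45% were higher in liver. The same count, again without Fosl1, held for lung over lymph node (42.3% called, 14.9% higher in lung). For bone marrow over lymph node it was 7, with Maff not called and Fosl1 left aside (22.5% called, 13.7% higher in bone marrow). Against spleen, 8 were higher in liver (31.3% called, 14% higher), 8 in lung (40.8% called, 18% higher) and 7 in bone marrow (24.1% called, 18.2% higher), with the same genes not called or left aside. Blood exceeded lymph node (37.4% called, 16.4% higher) and spleen (35.4% called, 20.1% higher) for 6 genes each, Fos, Fosb, Fosl2, Jun, Junb and Atf3. The same 6 were higher in spleen than in lymph node, where 14.3% of all genes were called and 4.44% were higher in spleen. In these 9 comparisons limma called 0 members lower, also at an unadjusted p under 0.05. Without Fosl1, the counts of higher members were 5 to 8 under the 3 other scalings, again with 0 lower, although the scaling to 20 T cell genes moved the share of higher calls among all genes called from 31.0% to 77.9% for spleen over lymph node and from 43.9% to 96.2% for blood over lymph node. In other alternatives the 6 higher in spleen than in lymph node became as few as 4. Fosl2 and Atf3 were both lost without lymph node replicate 3 and in the fit without blood and bone marrow.

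Among liver, lung, bone marrow and blood the members went both ways. Liver against lung gave 3 genes higher in liver (Jun, Junb, Jund) and 3 higher in lung (Fos, Fosb, Fosl2), where 34.9% of all genes were called. Liver against bone marrow gave 3 higher in liver (Fosl2, Junb, Maff) and 2 higher in bone marrow (Fos, Fosb), with Fosl1 left aside and 34.5% called. With scaling to T cell genes the split was 3 and 4. Lung against bone marrow gave 3 higher in lung (Fosl2, Atf3, Maff) and 4 higher in bone marrow (Fos, Fosb, Jun, Jund), with 43.5% called. Liver exceeded blood for 6 genes and was lower for Fos and Atf3 (39.4% called), and with scaling to T cell genes the split was 4 and 3. The call of Atf3 was lost without any 1 library of blood or bone marrow and without liver replicate 2 or 3. Lung exceeded blood for 6 and was lower for Fos (43.7% called), or 4 and 2 with that scaling. Without lung replicate 2, Atf3 was called lower as well. Bone marrow exceeded blood for 5 and was lower for Fosl2 and Atf3 (31.8% called).

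**Figure D3:**
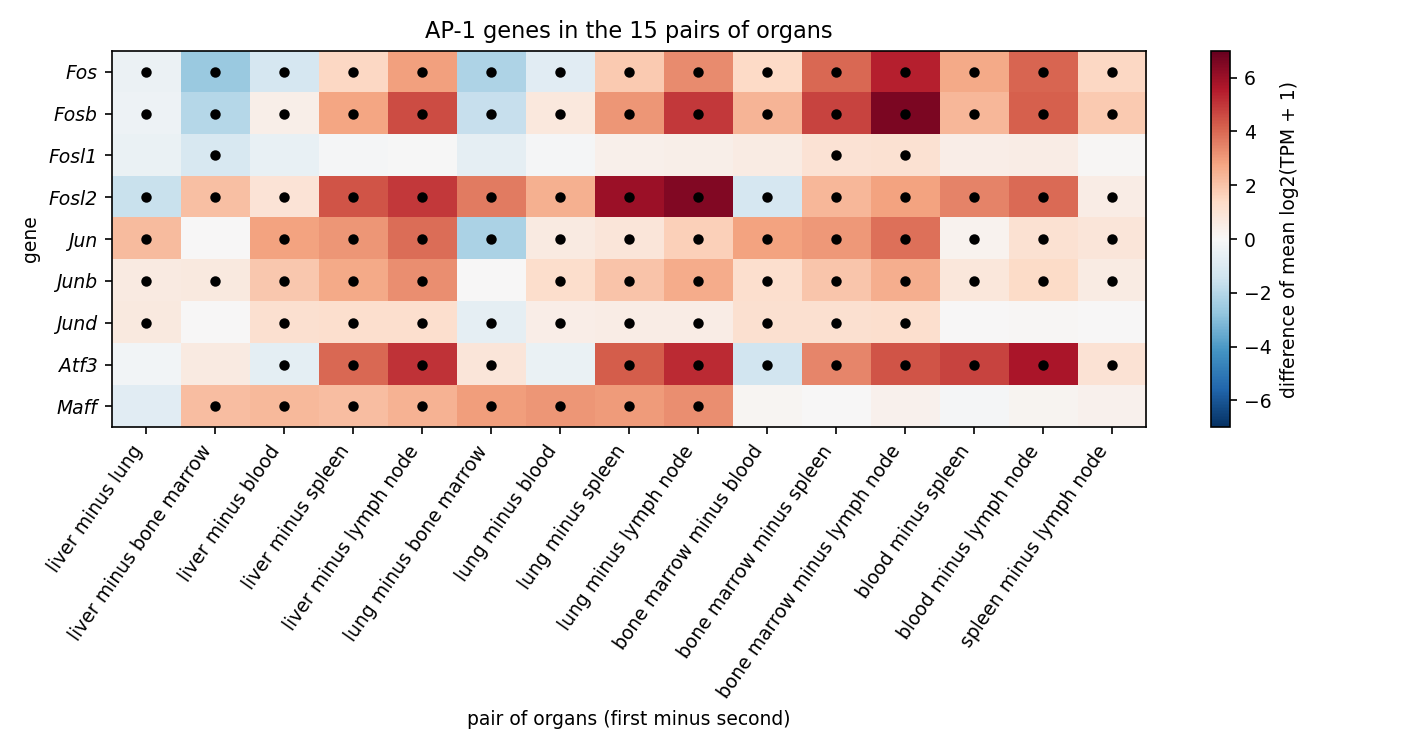
Difference of mean log2(TPM + 1) for each AP-1 gene (rows) in each of the 15 pairs of organs (columns), first organ minus second. Red is higher in the first organ, blue higher in the second, and black dots mark the 107 calls at an adjusted p under 0.05, of which 3 are those of Fosl1 with bone marrow. The columns against spleen and lymph node hold red dots alone, and blue dots lie in the columns among liver, lung, bone marrow and blood.

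The totals of the 2 families and the share of each gene in them are given without a test. Ratios within a library do not depend on how libraries are scaled. The Fos family summed to 2590 ± 7 TPM in bone marrow (SD, n = 3), 977 ± 11 TPM in blood, 973 ± 39 TPM in lung, 587 ± 53 TPM in liver, 152 ± 10.3 TPM in spleen and 54.7 ± 0.43 TPM in lymph node. The Jun family summed to 3696 ± 368 TPM in liver, 2739 ± 39.5 TPM in bone marrow, 2215 ± 116 TPM in lung, 1114 ± 55 TPM in blood, 813 ± 5 TPM in spleen and 652 ± 16 TPM in lymph node. The ratio of Fos to Jun family TPM was therefore highest in bone marrow, at 0.958, 0.939 and 0.939, and in blood, at 0.904, 0.895 and 0.835. It was 0.424, 0.465 and 0.430 in lung, 0.199, 0.173 and 0.189 in spleen, 0.191, 0.145 and 0.145 in liver and 0.0834, 0.0867 and 0.0815 in lymph node. Liver, with the most Jun family RNA, overlapped with spleen in this ratio, and no other pair of organs overlapped. Bone marrow and blood also had the highest sums of neutrophil and monocyte markers. The part of those cells in the ratio was not tested.

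Within the Fos family, Fosl2 made up 38.1% ± 1.6 of the RNA in lung and 21.7% ± 2.8 in liver, against 1.10% ± 0.05 in bone marrow, 3.32% ± 0.99 in spleen, 5.73% ± 0.13 in lymph node and 6.62% ± 0.21 in blood (SD, n = 3). Fos itself made up 84.9% to 89.1% on average in the last 4 organs but 62.7% in liver and 50.0% in lung. Within the Jun family, Junb ran from 40.3% ± 0.3 in lymph node to 72.7% ± 0.6 in lung, while Jund, the largest share in lymph node at 56.1% ± 0.5, stood at 22.8% ± 1.2 in liver. Jun was 12.9% ± 0.3 of the family in bone marrow and 9.81% ± 0.43 in liver, and 3.47% to 5.14% on average elsewhere.

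**Figure D4:**
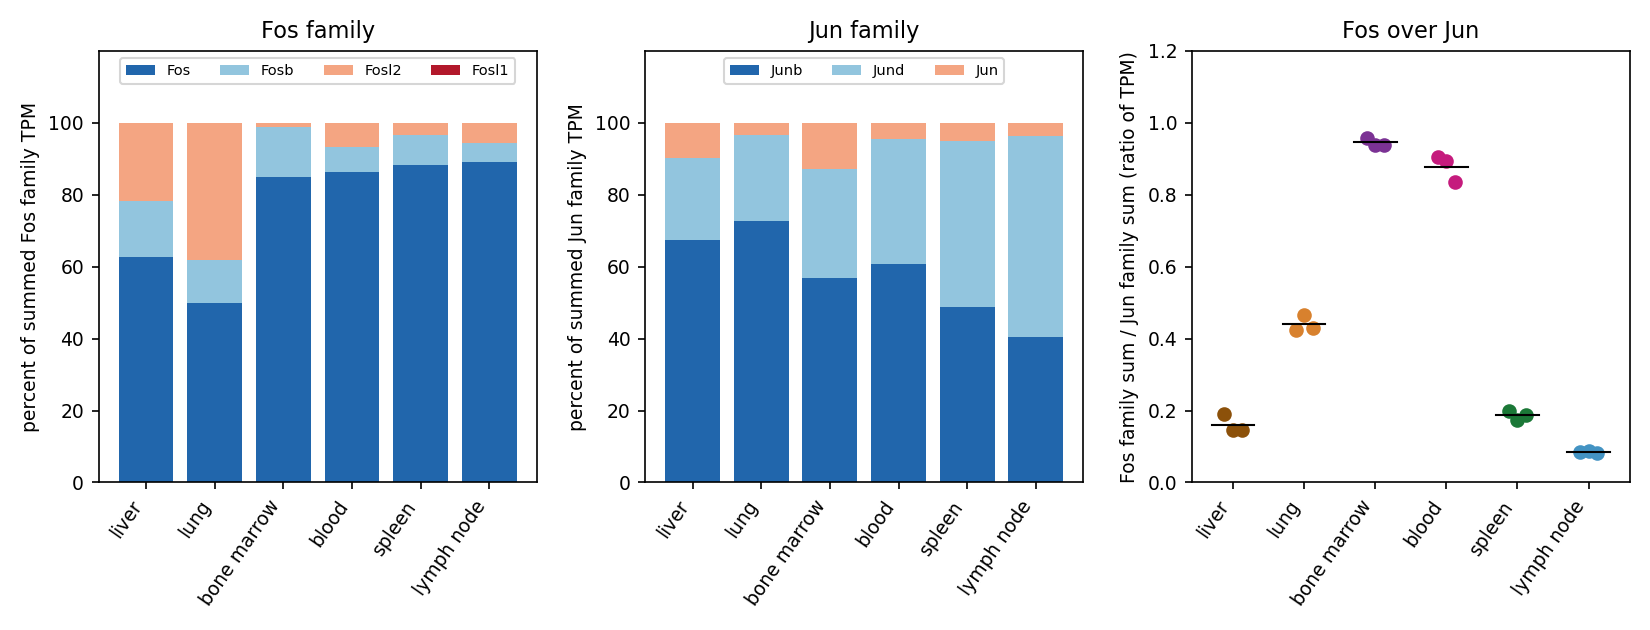
Mean share of each gene in the summed TPM of the Fos family (left) and the Jun family (middle), as stacked bars by organ, and the ratio of the 2 sums (right; points are libraries, lines are means of 3). Fosl2 took 38.1% of the Fos family in lung, Jund 56.1% of the Jun family in lymph node, and the ratio ran from 0.0839 in lymph node to 0.945 in bone marrow.

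Across the 18 libraries some members followed each other closely and others did not. Pearson's r of log2(TPM + 1) was 0.97 between Jun and Jund, 0.95 between Fos and Fosb, 0.90 between Fosl2 and Atf3, 0.89 between Jun and Junb and 0.80 between Fosl2 and Maff. It was 0.14 between Fos and Maff and 0.50 between Fosl2 and Jun. The libraries form 6 groups of 3, so these values mostly describe how the 6 organ means line up and carry no test.

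**Figure D5:**
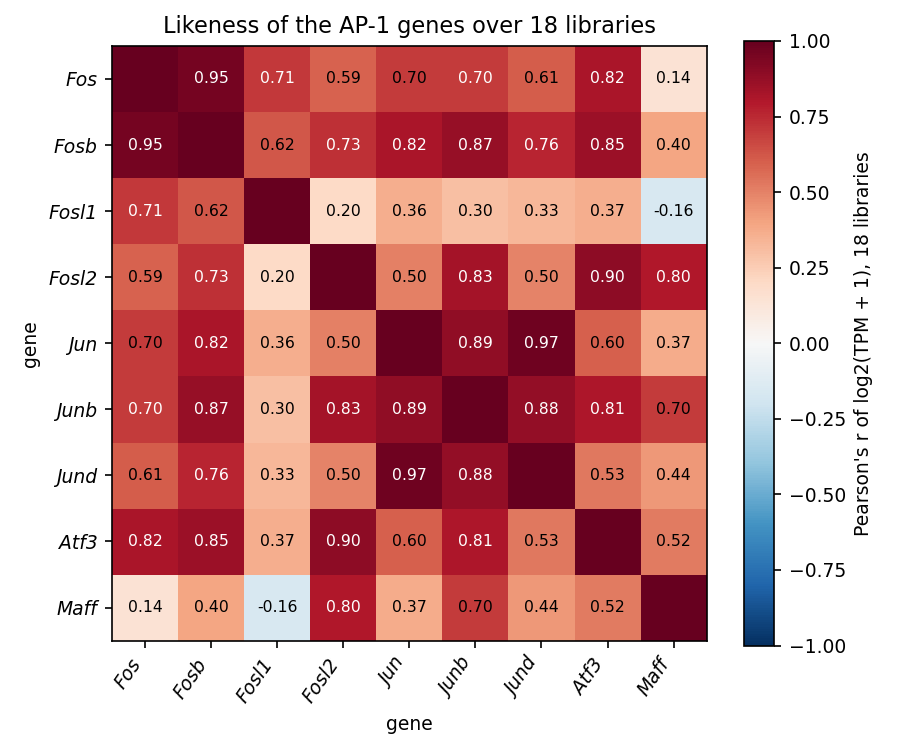
Pearson's r of log2(TPM + 1) between each pair of AP-1 genes over the 18 libraries, which are 6 organs with 3 libraries each. The highest value is that of Jun with Jund (0.97), and the only value below 0 is that of Fosl1 with Maff (-0.16).

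The genes most like each member, by the same measure among 9428 candidates of at least 10 TPM in some organ, differed from member to member. Fos was followed most closely by the linker histone gene Hist1h1c (r = 0.98), which stood at 245 TPM in bone marrow and 25.1 in lymph node, and by Gadd45a and Dstn. Fosb was nearest to Trib1 (0.99), the immediate early gene Ier2 (0.98) and Serinc3. Fosl2 was nearest to Tent5a, to the salt-inducible kinase gene Sik1 (142 TPM in lung and 10.6 in lymph node) and to Tob1. Among the genes nearest to Junb were S100a4 (1245 TPM in liver and 356 in lymph node) and Ppp1r15a. Jun was nearest to the integrin gene Itgb1, and Jund to the phosphatase gene Cdc25b, and both to Aldoa and Lars2. Atf3 was nearest to Tsc22d3, Lilr4b and Klf4, and Maff to Nfkbiz, an atypical inhibitor of NF-kB, the phosphatase gene Dusp10 (325 TPM in lung and 11.3 in bone marrow) and Vps37b (1164 TPM in lung and 56.2 in bone marrow). Fosl1, at its low level, was nearest to Cldn15, Osm and the neutrophil granule gene Ctsg (123 TPM in bone marrow and listed at 0 in liver and spleen). Several of these neighbours depended on the measure. With Spearman's correlation, Gadd45a and Dstn stayed among the nearest 3 of Fos, Trib1 and Ier2 of Fosb, and Itgb1 and Aldoa of Jun. Only Ppp1r15a stayed for Junb and only Aldoa for Jund. None of the genes named for Fosl1, Fosl2, Atf3 or Maff stayed among the nearest 3.

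Partners and regulators of AP-1 were called in both directions. Of 14 other leucine zipper genes that can pair with the members, 13 differed among the organs (not Bach2), where 68% of all genes tested did. Against lymph node 4 were higher and 2 lower in liver, 5 and 3 in lung and 6 and 3 in bone marrow. In blood the counts were 8 and 3, and in spleen 3 and 1. Of all genes tested, 31.1% were called in liver, 42.3% in lung, 22.5% in bone marrow, 37.4% in blood and 14.3% in spleen. The median difference of the 14 from lymph node was 0.21 in liver and 0.56 in blood. The median over all genes was -0.19 and -0.15. Among the widest ranges were those of Batf3 (12.6 TPM in blood, listed at 0 in liver) and Bach1 (54.6 TPM in blood, 7.67 in spleen). Of 20 genes for the kinases and serum response factors that switch these genes on, 17 differed among the organs (not Mapk7, Rps6ka3 and Mrtfb). Against lymph node 2 were higher and 5 lower in liver, 5 and 10 in lung, 2 and 2 in bone marrow, 4 and 6 in blood, and 0 and 6 in spleen by limma (0 higher also at an unadjusted p under 0.05). Those called were thus 7 of 20 in liver and 15 of 20 in lung, against 31.1% and 42.3% of all genes tested, and their median difference from lymph node was -0.33 in liver and -0.44 in lung, against -0.19 and -0.20 over all genes. Mapk3, the ERK1 gene, held 94.4 TPM in blood and 25.0 in lung, Map2k6, which activates p38, 17.8 TPM in liver and 2.27 in lung, and Map3k1 111 TPM in lung and 32.7 in spleen. Counts of both lists moved by more than 1.5 times with single libraries. For the partners, the 9 called in bone marrow were 5 without bone marrow replicate 1 or 3 or without any 1 lymph node library, and the 4 called in spleen were 1 or 2 without spleen replicate 2 or 3 or any 1 lymph node library. For the kinases and serum response factors, the 7 called in liver were 11 without liver replicate 1, the 10 in blood were 6 without lymph node replicate 1 or 3, the 4 in bone marrow were 7 without liver replicate 3 and 2 without lymph node replicate 2, and the 6 in spleen were 10 without lung replicate 3.

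Most other immediate early genes were higher in liver, lung, bone marrow and blood than in lymph node, and fewer were in spleen. All 22 differed among the organs, where 68% of all genes tested did. Against lymph node 18 were higher and 3 lower in liver, 16 and 4 in lung and 15 and 6 in bone marrow. In blood the counts were 13 and 7, and in spleen 7 and 5. Of all genes tested, 9.45% were higher in liver, 14.9% in lung, 13.7% in bone marrow, 16.4% in blood and 4.44% in spleen. The median difference of the 22 from lymph node was 1.89 in liver, 1.78 in lung, 1.02 in bone marrow, 0.66 in blood and 0.16 in spleen. The median over all genes was -0.19, -0.20, -0.0040, -0.15 and -0.11. Not all followed Fos: the orphan receptor gene Nr4a3 stood at 142 ± 13 TPM in lung and 108 ± 7 in liver (SD, n = 3) but at 4.01 ± 0.66 in bone marrow and 2.12 ± 0.15 in blood, and the phosphatase gene Dusp4 at 127 ± 12 TPM in liver and 4.80 ± 0.65 in blood. Klf4, a factor of myeloid cells and of T cell quiescence, stood at 52.4 ± 1.3 TPM in blood and 0.673 ± 0.023 in lymph node.

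Genes that respond to heat and handling of cells mostly had their highest mean in liver, the organ with the highest level of Junb. Of 10 such genes, all differed among the organs, where 68% of all genes tested did. For 9 of them the highest mean was in liver (Bag3 had it in lung, at 46.5 against 27.2 TPM). All 10 were higher in liver than in spleen, lymph node and blood, where 31.3%, 31.1% and 39.4% of all genes were called. Of all genes, 14% were higher in liver than in spleen, 9.45% than in lymph node, and 2693 of 16694 than in blood. Against lymph node the median difference was 1.93 in liver, 1.19 in lung, 0.75 in bone marrow and -0.12 in blood. The median over all genes was -0.19, -0.20, -0.0040 and -0.15. Hspa1a stood at 1495 ± 128 TPM in liver, 146 ± 6 in bone marrow, 124 ± 13 in lung and 2.68 ± 0.44 in lymph node. Its near-identical neighbour Hspa1b, whose reads may be shared with it, stood at 2470.3 ± 260.7 TPM in liver and 10.8 ± 0.8 in lymph node. Hspb1 was low everywhere, at 10.5 ± 8.9 TPM in liver. Whether cell preparation had a part in the levels of the AP-1 genes was not tested. In blood Hspa1a stood at 7.81 ± 1.45 TPM, Fos at 844 ± 8 TPM and Atf3 at 84.3 ± 2.4 TPM.

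Of 15 genes with known AP-1 sites in T cells, 14 differed among the organs (not Csf2), where 68% of all genes tested did. Highest means were in lung for 8 and in liver for 5, and lowest means in blood for 8. Against lymph node 11 were higher and 2 lower in lung, 9 and 3 in liver and 3 and 5 in bone marrow. In blood the counts were 4 and 8, and in spleen 2 and 7. Of all genes tested, 42.3% were called in lung, 31.1% in liver, 22.5% in bone marrow, 37.4% in blood and 14.3% in spleen. Areg, the growth factor amphiregulin, stood at 157 ± 18 TPM in lung, 91.6 ± 9.8 in liver, 12.3 ± 3.3 in bone marrow and 0.473 ± 0.087 in blood (SD, n = 3). Il10 stood at 35.7 ± 5.5 TPM in lung, 27.5 ± 2.4 in liver and 0.260 ± 0.173 in blood. Tnfrsf9, which encodes 4-1BB, ran from 423 ± 17 TPM in lung to 8.98 ± 1.18 in blood, and Ccr8 from 91.3 ± 15.4 TPM in liver to 0.507 ± 0.297 in blood. The median difference of the list from lymph node was 1.17 in lung, 1.23 in liver and -1.13 in blood. The median over all genes was -0.20, -0.19 and -0.15.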

How the data were processed

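Poly(A) RNA of Treg cells from 6 organs of wild-type, untreated mice was sequenced in 18 libraries, 3 per organ, with a directional kit per the labels' protocols. The authors deposited 1 table of TPM per library. Reads were processed with STAR and RSEM on mm10, per the submitters' processing notes, and their versions, the annotation and the strand setting are not given in the sources used here. TPM hold no read counts, so no count model was used and no interval from depth is given. The 16694 of 55487 genes whose mean reached 1 TPM in some group were fitted as log2(TPM + 1) with limma 3.58.1 in R 4.3.3 (group means of all 18 libraries, empirical Bayes with trend and robust options), with an F test and 15 pairwise contrasts. P-values were adjusted by Benjamini-Hochberg over all genes of each contrast and called under 0.05. A log2 difference on this scale understates the change of low genes. The script was tested on simulated data. Members and gene lists were chosen with earlier results of these data known. Named genes were all members, the 3 genes nearest to each by Pearson's r, and from each companion list the 3 called genes of widest range, with Areg and Il10; 2 genes that this rule names are not reported here. Alternatives were 3 scalings, 2 pseudocounts (0.1 and 5), no filter and a filter at 10 TPM, library weights, a replicate block, each library left out, adjustment over all contrasts, and fits of the 2 groups alone. For the nearest genes, Spearman's correlation was the alternative. Fits without blood and bone marrow or without liver, and all alternatives for the companion lists, were added after seeing the data. Coordinates are those of GENCODE M21 on GRCm38.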

Additional observations from a re-analysis of the deposited data

How the results depend on the processing

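Counts of members called in either direction stayed within 1.5 times of the values reported in the alternatives run. Over the 15 pairs there were 103 to 112 calls of 135 (103 to 109 with a library left out), and the F test called 8 or 9 members. These counts include Fosl1, which passed the filter through bone marrow alone. Without Fosl1 the fit reported gave 104 calls of 120, and the range of that count over the alternatives is not given here. Split by direction, counts moved by more than 1.5 times in 3 pairs. Members lower in liver than in bone marrow went from 3 to 5 with scaling to 20 T cell genes, or from 2 to 4 with Fosl1 left aside. Those lower in lung than in blood went from 1 to 2 with that scaling and without lung replicate 2. Those lower in liver than in blood went from 2 to 1 with abundant classes removed, with library weights, without a filter, with a pseudocount of 0.1 and in 8 of the fits with a library left out. Differences that were called in either fit and turned came from scaling to 20 T cell genes, which made liver minus blood -0.44 for Fosb, liver minus bone marrow -0.40 for Jun and -0.41 for Jund, and lung minus blood -0.046 for Jund, and the cause was not tested. Differences not called in either fit crossed 0 in other alternatives too, such as Atf3 liver minus lung (-0.19, up to 0.11) and Junb lung minus bone marrow (0.04, down to -0.017). That scaling moved the median of all genes by -0.78 (liver minus blood) to 0.96 (blood minus lymph node) and the share of higher calls by over 10 points in 13 of 15 pairs. Median-of-ratios scaling did so in 8 pairs, with median shifts of -0.18 to 0.24, and removal of abundant classes in 3. Replicate numbers did not pair the libraries: deviations of same-numbered libraries correlated at -0.088 to 0.112 (median 0.025, 4 of 45 over 0.1). With a replicate block the members gave 108 calls, and 1 call was gained (Atf3, liver over bone marrow, adjusted p = 0.0436). Leaving out liver changed no call of a member.

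Companion counts against lymph node were less stable. For the leucine zipper partners the 4 called in spleen became 2 with a pseudocount of 5, 9 with library weights and 1 without blood and bone marrow, and 1 to 5 with a library left out. The 6 in liver became 3 with library weights (4 to 7 with a library left out), and the 9 in bone marrow ran from 5 to 10 with a library left out. For the kinases and serum response factors the 7 in liver became 3 under median-of-ratios and T cell scaling and 4 in the fit of 2 groups (6 to 11 with a library left out). The 10 in blood became 4 and 17 under these scalings (6 to 12). The 4 in bone marrow became 13 with T cell scaling, 13 with library weights, 14 in the fit of 2 groups and 8 without liver (2 to 7). The 6 in spleen became 1 and 0 under the 2 scalings, 13 with library weights, 12 in the fit of 2 groups, 3 without blood and bone marrow and 10 without liver (4 to 10). The cause was not tested. At an unadjusted p under 0.05, limma with T cell scaling called 4 of these 20 genes between spleen and lymph node.

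Without read counts the depth cannot be read from TPM, so values near 0, such as those of Fosl1, cannot be told from missed reads.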
